A study of Mus musculus with 6 samples.

Results

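Genes of the extracellular matrix, the cell junction and cell adhesion were followed in activated CD4+ T cells, 8 in number: Mmp14, Col5a3, Serpinf1, Dsp, Mcam, Mpzl2, Mpzl3 and Pecam1. They are 8 of the 4162 genes listed in the deposited count table and were taken by symbol, having been selected on their log2 fold change between the genotypes in these same libraries. RNA sequencing covered 3 B6.UTX TCD mice and 3 B6.WT mice, called UTX TCD and WT. In UTX TCD mice the T cells lack UTX, the product of Kdm6a and a demethylase of histone H3. The sources used here do not give the promoter behind this deletion, nor the age and sex of the mice. In both genotypes naive CD4+ T cells were isolated magnetically from spleen and stimulated for 48 h with anti-CD3 on the plate and anti-CD28 in solution.

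The extracellular matrix is a network of collagens, laminins and other secreted proteins that cells bind, cut and rebuild. Metalloproteinases cut it, many serpins inhibit serine proteinases, desmosomes and tight junctions tie epithelial cells to each other, and adhesion proteins with immunoglobulin domains bind cells to like or unlike partners. T cells form no desmosomes and lay down little matrix, but they adhere to endothelium and cross matrix when they enter tissue. UTX removes methyl groups from lysine 27 of histone H3, a mark of repressed genes.

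Column totals over the listed genes ran from 8363326 to 10288306 counts. Levels are given in CPM, that is, counts scaled to a common total of listed-gene counts. Each log2 fold change sets UTX TCD over WT and stands with its standard error. Kdm6a itself had 188, 207 and 179 CPM in UTX TCD libraries, against 286, 281 and 281 CPM in WT libraries (log2 fold change -0.56 ± 0.09, edgeR adjusted p = 0.0029). These are counts over the whole gene, and the deleted part is not known from them. UTX TCD libraries varied more among themselves than WT libraries, with a biological coefficient of variation of 22.3% in UTX TCD and 8.01% in WT libraries, and of 13.2% in UTX TCD libraries without replicate 2. Among the tested genes 20 had a log2 fold change within 0.1 of 0, against 1019 between -0.4 and -0.2, from which a selection of the table on the genotype difference was inferred, and its rule is not known here. At an edgeR adjusted p under 0.05, 68.1% of the 4118 tested genes were called, 41.1% higher and 27.0% lower in UTX TCD libraries. Of all calls 60.4% were higher, against 70.6% with upper-quartile scaling and 45.8% with a scaling that puts the gap in the fold changes at 0. In bulk RNA, fewer cells that express a gene and less RNA per cell cannot be told apart.

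Promoter sequences were available for 5 of the 8 genes, as 250 bases before and 50 bases after the start annotated by RefSeq (GRCm38.p6). Those of Mmp14, Dsp and Serpinf1 are shown because Mmp14 has the largest fold change of the 8 genes and Dsp and Serpinf1 are lower in UTX TCD libraries to a like degree. Capitals mark CpG dinucleotides. The Mmp14 window is chr14:54431348-54431647 on the plus strand, that of Dsp is chr13:38151044-38151343 on the plus strand, and that of Serpinf1 is chr11:75422574-75422873 on the minus strand.
Mmp14: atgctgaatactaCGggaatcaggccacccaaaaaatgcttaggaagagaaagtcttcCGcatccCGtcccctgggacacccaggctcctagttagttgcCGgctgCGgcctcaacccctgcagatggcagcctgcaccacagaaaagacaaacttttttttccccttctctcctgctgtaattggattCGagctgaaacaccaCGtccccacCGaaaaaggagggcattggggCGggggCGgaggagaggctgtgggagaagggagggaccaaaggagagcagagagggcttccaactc
Dsp: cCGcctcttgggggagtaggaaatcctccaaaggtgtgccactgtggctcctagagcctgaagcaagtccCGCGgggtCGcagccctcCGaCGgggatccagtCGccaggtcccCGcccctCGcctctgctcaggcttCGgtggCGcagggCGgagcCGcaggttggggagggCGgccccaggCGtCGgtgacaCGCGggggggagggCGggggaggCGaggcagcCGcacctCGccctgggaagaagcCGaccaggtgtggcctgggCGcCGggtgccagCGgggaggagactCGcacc
Serpinf1: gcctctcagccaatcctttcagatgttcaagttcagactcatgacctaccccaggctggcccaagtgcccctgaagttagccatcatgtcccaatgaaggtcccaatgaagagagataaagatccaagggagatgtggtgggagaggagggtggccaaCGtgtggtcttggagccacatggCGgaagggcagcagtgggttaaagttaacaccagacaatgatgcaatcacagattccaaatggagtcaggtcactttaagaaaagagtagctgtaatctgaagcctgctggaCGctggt
Dsp and Serpinf1 differ in base composition here. The Dsp window is 73.0% G and C and holds 27 CpG dinucleotides, whereas the Serpinf1 window is 50.7% G and C and holds 3. The ratio of observed to expected CpG was 0.69 for Dsp and 0.16 for Serpinf1. Mmp14 lay between them, with 10 CpG dinucleotides and a ratio of 0.43. Of the windows not shown, Mcam had 29 CpG dinucleotides and a ratio of 0.73. Col5a3, also lower in UTX TCD libraries to a like degree, had 20 and a ratio of 0.66, near that of Dsp. The median was 20 over 4111 windows of genes in the table and 7 over all 32841 windows.

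A search of both strands for ACGTG, the core of the hypoxia response element to which HIF binds, was made because the title of the study names hypoxia sensing. One match was found in the Mmp14 window, with its first base at position -48 from the start, and one in the Serpinf1 window at -93. No match lay in the Dsp, Mcam or Col5a3 window. Among all windows 19.6% hold the motif, and among windows of listed genes the share is 25.0%. The GC box GGGCGG was found 2 times in Mmp14, 3 times in Col5a3, 4 times in Dsp and 5 times in Mcam, and not in Serpinf1. It is present in 61.5% of the windows of genes in the table. Neither the TATA box TATAAA nor the AP-1 motif TGANTCA was matched in any of the 5 windows, where 7.9% and 5.5% of the windows of genes in the table hold them.

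In UTX TCD libraries 3 of the 8 genes were higher and 5 lower, and these values chose them, so they are given without a test and nothing is read from the counts. All 8 passed the low-count filter. In 7 of them the groups did not overlap, as in 85.8% of all tested genes, 41.8% on the higher side and 44.0% on the lower.

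**Figure D1:**
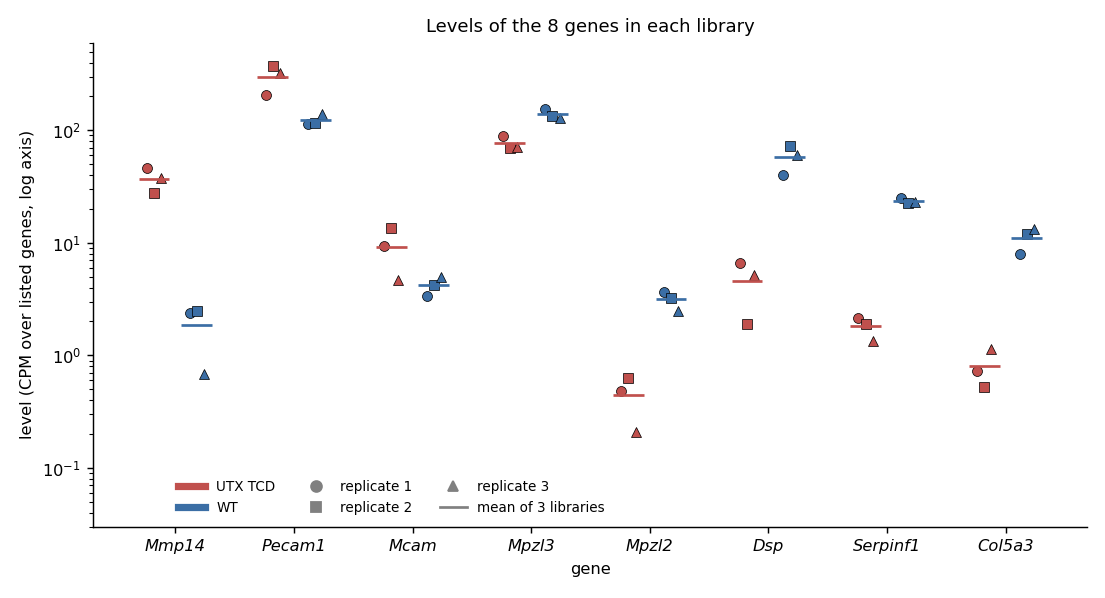
Level of each of the 8 genes in every library, in CPM over the listed genes on a log axis, with UTX TCD in red left of WT in blue; symbols mark the replicate and bars the mean of 3 libraries. The groups are apart in every gene but Mcam, where UTX TCD replicate 3 at 4.69 CPM lies below WT replicate 3 at 4.99 CPM.

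Mmp14 encodes a membrane-anchored metalloproteinase that cuts fibrillar collagen and activates the secreted proteinase MMP2. It lies on chromosome 14 from 54431612 to 54445364 on the plus strand (ENSMUSG00000000957, GRCm38). It had 45.9, 27.5 and 37.9 CPM in UTX TCD replicates 1, 2 and 3, against 2.38, 2.49 and 0.681 CPM in WT replicates 1, 2 and 3. Every UTX TCD library was above every WT library, and the nearest pair differed 11.02-fold. In reads these levels were 381, 260 and 364 counts in UTX TCD and 24, 23 and 6 counts in WT libraries, and the WT level rests on few reads. The means were 37.1 ± 9.24 CPM in UTX TCD and 1.85 ± 1.01 CPM in WT libraries, a ratio of 20.0 and a log2 fold change of 4.30 ± 0.42, the 6th highest of all tested genes.

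Col5a3 encodes the alpha 3 chain of type V collagen, a fibril-forming collagen. It lies on chromosome 9 from 20770050 to 20815067 on the minus strand (ENSMUSG00000004098). It had 0.723, 0.528 and 1.15 CPM in UTX TCD libraries, from 6, 5 and 11 counts, against 7.92, 11.9 and 13.4 CPM in WT libraries, from 80, 110 and 118 counts. Every UTX TCD library was below every WT library, by 6.92-fold at the nearest, and the UTX TCD level rests on few reads. The log2 fold change was -3.76 ± 0.39.

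Serpinf1 encodes pigment epithelium-derived factor, a secreted serpin that does not inhibit proteinases and is known for blocking vessel growth. It lies on chromosome 11 from 75409769 to 75422701 on the minus strand (ENSMUSG00000000753). Its level was 2.17, 1.90 and 1.35 CPM in UTX TCD libraries, from 18, 18 and 13 counts, against 25.1, 22.5 and 22.9 CPM in WT libraries, from 253, 207 and 202 counts. WT libraries lay close to each other, with a coefficient of variation of 5.92%, the smallest of the 8 genes in WT. With a log2 fold change of -3.70 ± 0.25, the nearest libraries still differed 10.4-fold.

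Dsp encodes desmoplakin, which ties the plaque of the desmosome to intermediate filaments. It lies on chromosome 13 from 38151294 to 38198577 on the plus strand (ENSMUSG00000054889). Its level was 6.63, 1.90 and 5.21 CPM in UTX TCD libraries, from 55, 18 and 50 counts, against 39.9, 72.3 and 59.7 CPM in WT libraries, from 403, 667 and 526 counts. The groups were apart, by 6.02-fold at the nearest libraries. UTX TCD replicate 2 was the lowest library, 3.48-fold under replicate 1. The log2 fold change was -3.65 ± 0.42, and Col5a3, Serpinf1 and Dsp held places 9, 10 and 11 from the lowest among all tested genes.

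Mpzl2 and Mpzl3 encode adhesion proteins related to myelin protein zero, each with an immunoglobulin domain. Mpzl2 mediates binding between like molecules and was described in thymic epithelium, and loss of Mpzl3 in mice disturbs skin and hair. The genes sit side by side on the plus strand of chromosome 9, Mpzl2 from 45039799 to 45054015 (ENSMUSG00000032092) and Mpzl3 from 45055186 to 45077436 (ENSMUSG00000070305), 1.17 kb apart. Mpzl2 had 0.482, 0.634 and 0.208 CPM in UTX TCD libraries, from 4, 6 and 2 counts, against 3.67, 3.25 and 2.50 CPM in WT libraries, from 37, 30 and 22 counts. The groups did not overlap, at 3.94-fold between the nearest libraries, and the log2 fold change was -2.80 ± 0.46. Mpzl3 had 88.6, 70.1 and 70.8 CPM in UTX TCD libraries, against 156, 133 and 130 CPM in WT libraries. The groups of Mpzl3 were apart by 1.46-fold at the nearest, and its log2 fold change of -0.87 ± 0.13 was the smallest in size of the 8 genes. Both neighbours were thus lower in UTX TCD libraries, by unequal amounts.

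Pecam1 encodes CD31, an adhesion receptor of endothelium, platelets and leukocytes whose cytoplasmic tail recruits the phosphatase SHP-2. In human blood it is found on naive CD4+ T cells and is lost from many cells after activation. It lies on chromosome 11 from 106654217 to 106750628 on the minus strand (ENSMUSG00000020717). Its level was 206, 369 and 324 CPM in UTX TCD libraries, against 113, 117 and 138 CPM in WT libraries. UTX TCD replicate 1 was the lowest of its group and still 1.49-fold above the highest WT library. The means were 299.6 ± 83.9 CPM in UTX TCD and 122.8 ± 13.6 CPM in WT libraries, a log2 fold change of 1.29 ± 0.21.

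Mcam encodes CD146, an adhesion molecule of endothelium that in human also marks a small set of effector T cells. It lies on chromosome 9 from 44134469 to 44142727 on the plus strand (ENSMUSG00000032135). It had 9.40, 13.5 and 4.69 CPM in UTX TCD libraries, against 3.37, 4.23 and 4.99 CPM in WT libraries. UTX TCD replicates 1 and 2 were above all WT libraries and replicate 3 was not, so the groups overlapped. The log2 fold change was 1.13 ± 0.40, and 0.73 without UTX TCD replicate 2.

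**Figure D2:**
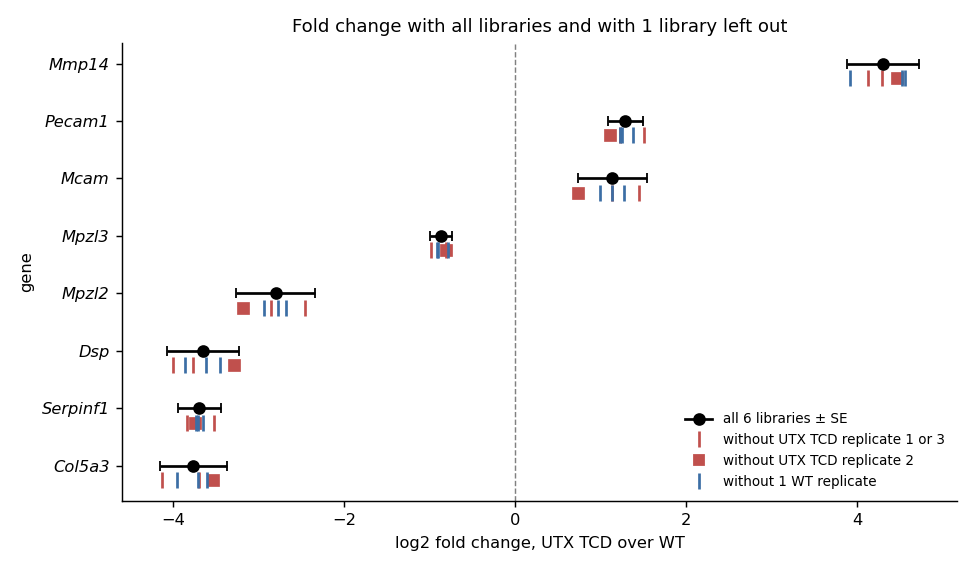
Log2 fold change of each of the 8 genes, UTX TCD over WT, with all 6 libraries (black, ± SE) and, below it, with 1 library left out at a time. Mcam shows the widest relative range, 0.73 to 1.45, and Mmp14 ran from 3.92 to 4.56.

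Levels of different genes were compared per kb of annotated exon. In UTX TCD libraries the order was Pecam1 at 48.1 ± 13.5 CPM per kb, Mpzl3 at 10.9 ± 1.498, Mmp14 at 6.23 ± 1.55, Mcam at 2.75 ± 1.32, Serpinf1 at 0.767 ± 0.176, Dsp at 0.474 ± 0.251, Col5a3 at 0.117 ± 0.0464 and Mpzl2 at 0.0634 ± 0.0310 CPM per kb (SD, n = 3). Serpinf1 and Dsp overlapped in their libraries, as did Col5a3 and Mpzl2. In WT libraries it was Mpzl3 at 20.0 ± 2.05 CPM per kb, Pecam1 at 19.7 ± 2.18, Serpinf1 at 9.95 ± 0.589, Dsp at 5.93 ± 1.69, Col5a3 at 1.63 ± 0.416, Mcam at 1.25 ± 0.243, Mpzl2 at 0.450 ± 0.0850 and Mmp14 at 0.311 ± 0.170 CPM per kb. There Mpzl3 and Pecam1, Col5a3 and Mcam, and Mpzl2 and Mmp14 were neighbours with overlapping libraries. By mean, Mmp14 thus followed Pecam1 and Mpzl3 in UTX TCD libraries and was the lowest of the 8 genes in WT libraries.

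**Figure D3:**
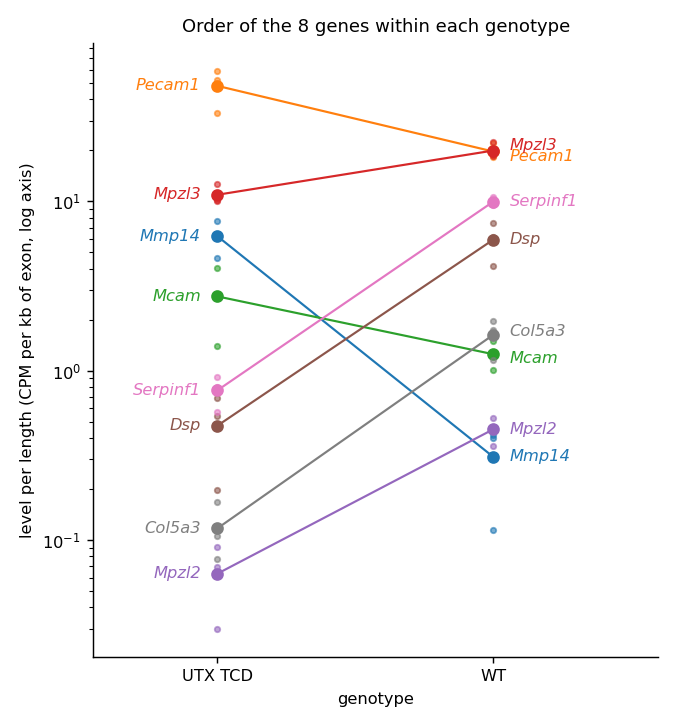
Levels of the 8 genes per length, in CPM per kb of exon on a log axis, with UTX TCD on the left and WT on the right; large points are means of 3 libraries and small points single libraries. Mmp14 stands at 6.23 CPM per kb in UTX TCD and 0.311 CPM per kb in WT, while Serpinf1, Dsp and Col5a3 run the other way.

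For each of the 8 genes, the genes of the table with the most like pattern were found by the root mean square difference of log2 CPM over the 6 libraries, after each gene was centred on its own mean. Pecam1 was followed most closely by Gmfg, a regulator of branched actin, at 0.07, and by Shf, at 0.10. Mcam was closest to Hmcn2, a hemicentin of the extracellular matrix, at 0.09, and then to Zfp354c at 0.23. Hmcn2 had 12.8, 17.9 and 6.35 CPM in UTX TCD libraries, against 4.16, 4.77 and 6.58 CPM in WT libraries, with the same UTX TCD library low. Mpzl3 was closest to Btbd19 at 0.05 and Zfp426 at 0.07. For the genes with the widest differences the distances were larger. Col5a3 was nearest Zdbf2 at 0.21 and Sspo at 0.28, Serpinf1 nearest Ptpn5, a tyrosine phosphatase, at 0.21 and Thy1, the T cell surface protein CD90, at 0.35, and Dsp nearest Cavin3 at 0.28 and the chemokine gene Ccl3 at 0.41. Mpzl2 was nearest Dapl1 at 0.25 and Otx1 at 0.27, and Mmp14 nearest Myo6, an unconventional myosin, at 0.54 and Nav1 at 0.60. Among the 8 genes themselves, Col5a3 and Dsp were the closest pair, at 0.43.

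Of the 8 genes 4 lie on chromosome 9 and 2 on chromosome 11. Mcam, Mpzl2 and Mpzl3 fall within a stretch of chromosome 9, with 897 kb between Mcam and Mpzl2, and Col5a3 is 23319 kb from Mcam. Of the genes within 500 kb of any of the 8, 39 others had been tested, of which 10 were higher, 14 lower and 15 did not pass (edgeR adjusted p under 0.05). These shares were 25.6% higher and 35.9% lower, against 41.1% and 27.0% of all tested genes, and 7 of the 24 calls held whichever library was left out. The median size of the log2 fold change, whatever its sign, was 0.37 among these neighbours and 0.45 over all tested genes.

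The neighbour that differed by more than 4-fold was Thy1, 85.9 kb from Mcam. Thy1 had 42.9, 77.6 and 49.9 CPM in UTX TCD libraries, against 887, 718 and 820 CPM in WT libraries (log2 fold change -3.83 ± 0.23, edgeR adjusted p = 1.9e-04). Thy1 fell, while Mcam was above all WT libraries in 2 of 3 UTX TCD libraries. All 6 tested neighbours of Mcam passed, 1 higher and 5 lower, where 68.1% of all tested genes did, but of the 6 only Thy1 passed in every fit with 1 library left out. Without WT replicate 1 or 2, the calls of Dpagt1 (-0.21 and -0.24), Hyou1 (-0.33 and -0.38), Trappc4 (-0.38 and -0.42), Bcl9l (0.26 and 0.25) and Cxcr5 (-1.06 and -1.05) were lost. Dpagt1 (-0.27), Hyou1 (-0.41), Trappc4 (-0.41) and Bcl9l (0.30) also lost theirs without WT replicate 3, as did Dpagt1 (-0.27), Hyou1 (-0.37) and Bcl9l (0.25) without UTX TCD replicate 3. Beside Mpzl2 and Mpzl3, Kmt2a, a histone H3K4 methyltransferase gene, was higher at 0.38 ± 0.08 (edgeR adjusted p = 0.0092), a call not held without WT replicate 2 (0.35), and Arcn1 did not pass at -0.11 ± 0.08. Cxcr5, which lies within 500 kb of these 2 genes also, was lower at -1.10 ± 0.27 with all libraries (edgeR adjusted p = 0.013). Around Mmp14, 2 neighbours were higher, 2 lower and 3 did not pass, with log2 fold changes from -0.35 to 1.33. Those of Col5a3 ran from -0.80 to 1.09, those of Serpinf1 from -0.90 to 0.69, those of Dsp from -0.40 to -0.17 and those of Pecam1 from -0.42 to 0.89.

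**Figure D4:**
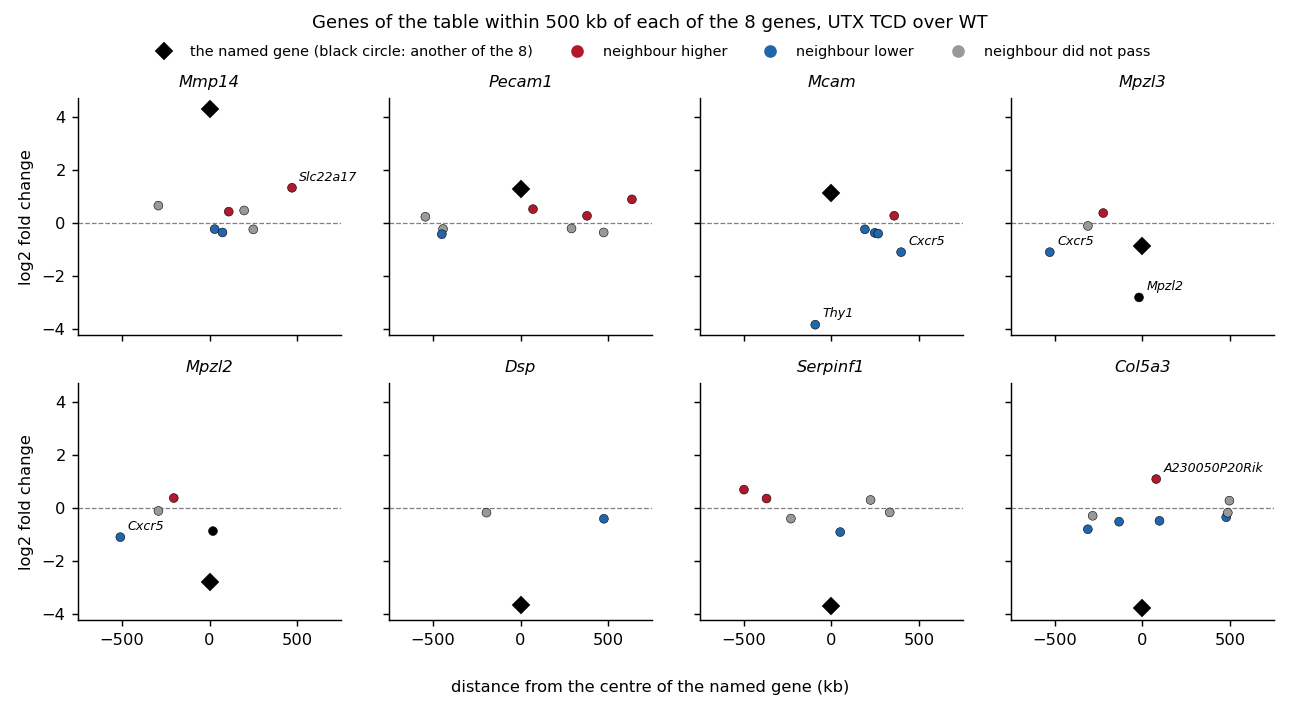
Log2 fold change, UTX TCD over WT, of the tested genes within 500 kb of each of the 8 genes, by distance between gene centres in kb. The black diamond is the named gene, and Thy1 at -3.83 lies opposite Mcam at 1.13.

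Other genes of the same systems were taken from 6 lists that hold none of the 8 genes, 358 genes in all, of which 70 were tested. Of these 35 were higher, 23 lower and 12 did not pass at an edgeR adjusted p under 0.05, the lower ones being 32.9% against 27.0% of all tested genes and the higher ones 35 of 70 against 41.1%. Their median log2 fold change was 0.28, against -0.15 over all tested genes. The split of calls was alike, with 60.3% of list calls and 60.4% of all calls higher. Without WT replicate 1 the counts were 23 and 13, and without WT replicate 2 they were 20 and 12. Of the 58 calls 29 held whichever library was left out. Genes of the lists with no row in the table were not analysed here.

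In the list of matrix proteinases and their inhibitors, 7 of 12 tested genes rose, 3 fell and 2 did not pass, with a median log2 fold change of 0.39. These shares were 58.3% higher and 25.0% lower, against 41.1% and 27.0% of all tested genes, and 12 of the list's 59 genes had a row. Mmp15, a membrane-anchored metalloproteinase like Mmp14, rose to 6.31 ± 1.14 CPM in UTX TCD, against 1.59 ± 0.478 CPM in WT libraries (1.99 ± 0.34, edgeR adjusted p = 0.0042). Adamtsl4, a matrix protein related to ADAMTS proteinases, rose by 1.82 ± 0.37 on the log2 scale. Adamts3, which trims procollagen, fell to 1.87 ± 0.648 CPM in UTX TCD, against 8.52 ± 2.07 CPM in WT libraries (-2.17 ± 0.35). Furin, the convertase that cuts the inhibitory segment from the Mmp14 protein, fell to 246 ± 33.1 CPM in UTX TCD, against 391 ± 56.7 CPM in WT libraries (-0.67 ± 0.14, edgeR adjusted p = 0.0078). The count of higher genes was 4 and that of lower genes 2 without WT replicate 1 or 2.

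Among collagens and core matrix genes 9 of 12 tested genes rose, 2 fell and 1 did not pass, with a median log2 fold change of 1.64. These shares were 75.0% higher and 16.7% lower, against 41.1% and 27.0% of all tested genes. Of the list's 107 genes only 12 had a row, so the list as a whole was not read. Lama5, the laminin alpha 5 chain of basement membranes, had 49.8, 109 and 44.9 CPM in UTX TCD libraries, and its mean was 67.9 ± 35.7 CPM there and 6.27 ± 1.03 CPM in WT libraries (3.44 ± 0.38, edgeR adjusted p = 0.0011). Ecm1, a secreted matrix protein, rose by 1.98 ± 0.26 and Fbln1, which encodes fibulin 1, by 1.04 ± 0.14. Prg4, the lubricating proteoglycan lubricin, rose to 2.43 ± 0.636 CPM in UTX TCD, against 0.782 ± 0.0198 CPM in WT libraries (1.61 ± 0.39), but did not pass without WT replicate 1 (1.62) or 2 (1.59). Col5a1, chosen after its values were seen as the partner chain of Col5a3, had 5.66, 5.92 and 5.94 CPM in UTX TCD libraries and 2.40 ± 1.13 CPM in WT libraries (1.27 ± 0.37, edgeR adjusted p = 0.021). It did not pass without WT replicate 2 (1.16) or 3 (1.02). The 2 type V collagen chains listed in the table thus differed in opposite directions, Col5a1 higher and Col5a3 lower. Higher and lower counts without WT replicates 1, 2 and 3 were 6 and 0, 3 and 0, and 6 and 1, and without UTX TCD replicate 2 they were 9 and 1.

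All 4 tested serpins other than Serpinf1 fell, with a median log2 fold change of -1.54, where 27.0% of all tested genes fell. Serpinc1, which encodes antithrombin, fell to 4.49 ± 0.912 CPM in UTX TCD, against 20.9 ± 3.51 CPM in WT libraries (-2.21 ± 0.25, edgeR adjusted p = 0.0012). Serpina3f fell to 42.0 ± 12.5 CPM in UTX TCD, against 119 ± 19.9 CPM in WT libraries. Serpina3g fell by 0.92 ± 0.28 and did not pass without UTX TCD replicate 1 (-0.75) or 3 (-0.76) or WT replicate 1 (-0.77) or 3 (-0.93). Serpina3f and Serpina3g belong to a cluster of near-identical genes, so their separate values are uncertain. Of the list's 29 serpins 4 had a row.

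In the list of desmosome, adherens, tight and gap junction genes 12 of 17 tested rose, 3 fell and 2 did not pass, with a median log2 fold change of 0.67. These shares were 70.6% higher and 17.6% lower, against 41.1% and 27.0% of all tested genes, and 17 of the list's 82 genes had a row. Dst, which encodes dystonin, a plakin related to desmoplakin, rose to 73.0 ± 10.97 CPM in UTX TCD, against 20.0 ± 4.07 CPM in WT libraries (1.87 ± 0.19, edgeR adjusted p = 8.1e-04). Marveld1, a membrane protein of the MARVEL family, rose by 1.195 ± 0.14 on the log2 scale, Tjp3, the tight junction scaffold ZO-3, by 1.87 ± 0.33, and Afdn, the adherens junction adaptor afadin, by 0.92 ± 0.16. Evpl, another plakin, chosen after its values were seen, rose to 6.63 ± 1.19 CPM in UTX TCD, against 2.45 ± 0.6998 CPM in WT libraries. Dsp, lower at -3.65, thus differed in direction from the plakin genes Dst and Evpl. Higher and lower counts were 8 and 1 without WT replicate 1, and 9 and 1 without WT replicate 2.

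Among immunoglobulin-superfamily adhesion genes the shares called were near those of all tested genes, 38.9% higher against 41.1% and 33.3% lower against 27.0%. Of 18 tested, 7 rose, 6 fell and 5 did not pass, with a median log2 fold change of -0.30. Igsf3 rose to 27.0 ± 4.46 CPM in UTX TCD, against 9.33 ± 0.386 CPM in WT libraries (1.53 ± 0.19, edgeR adjusted p = 0.0017). Emb, which encodes embigin, a partner of lactate transporters, fell by 0.56 ± 0.07, and Igsf9 fell by 2.38 ± 0.35. Ncam1, the neural cell adhesion molecule CD56, rose and had 63 counts in all UTX TCD libraries together and 5 counts in all WT libraries, a ratio of 13.0 (exact 95% interval 5.27 to 41.3, counting error only; edgeR adjusted p = 0.0027). Siglecf, an inhibitory lectin of eosinophils named after its values were seen, fell and had 0 counts in every UTX TCD library and 21, 24 and 16 counts in WT libraries, which is at least 6.56-fold lower when 3 counts are allowed per library. Without WT replicate 2, 4 genes were higher and 4 lower.

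The list of known binding partners had 3 higher, 5 lower and 2 not passing of 10 tested. Its median log2 fold change was -0.35. Of all tested genes 41.1% were higher and 27.0% lower, and 10 of the list's 31 genes had a row. The list shares Col5a1, Jup and Vim with the lists above. Cd38, an enzyme that also binds CD31, fell to 0.591 ± 0.158 CPM in UTX TCD, against 2.72 ± 0.446 CPM in WT libraries (-2.19 ± 0.40, edgeR adjusted p = 0.0051), whereas Pecam1 was higher. The Cd38 levels rest on few reads, 6, 6 and 4 counts in UTX TCD and 32, 21 and 24 counts in WT libraries. Cd44, the hyaluronan receptor that Mmp14 binds and cuts, fell to 396 ± 132 CPM in UTX TCD, against 788 ± 204 CPM in WT libraries (-0.99 ± 0.28, edgeR adjusted p = 0.019), and did not pass without WT replicate 1 (-0.79) or 2 (-1.01). Jup, or plakoglobin, which joins desmoplakin to desmosomal cadherins, rose to 4.63 ± 0.882 CPM in UTX TCD, against 1.76 ± 0.748 CPM in WT libraries (1.40 ± 0.38, edgeR adjusted p = 0.018), and did not pass without WT replicate 1 (1.17) or 3 (1.29). Lgals1, the lectin galectin 1, fell by 0.93 ± 0.19. Higher and lower counts were 1 and 2 without WT replicate 1 or 2, and 0 and 3 without WT replicate 3.

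**Figure D5:**
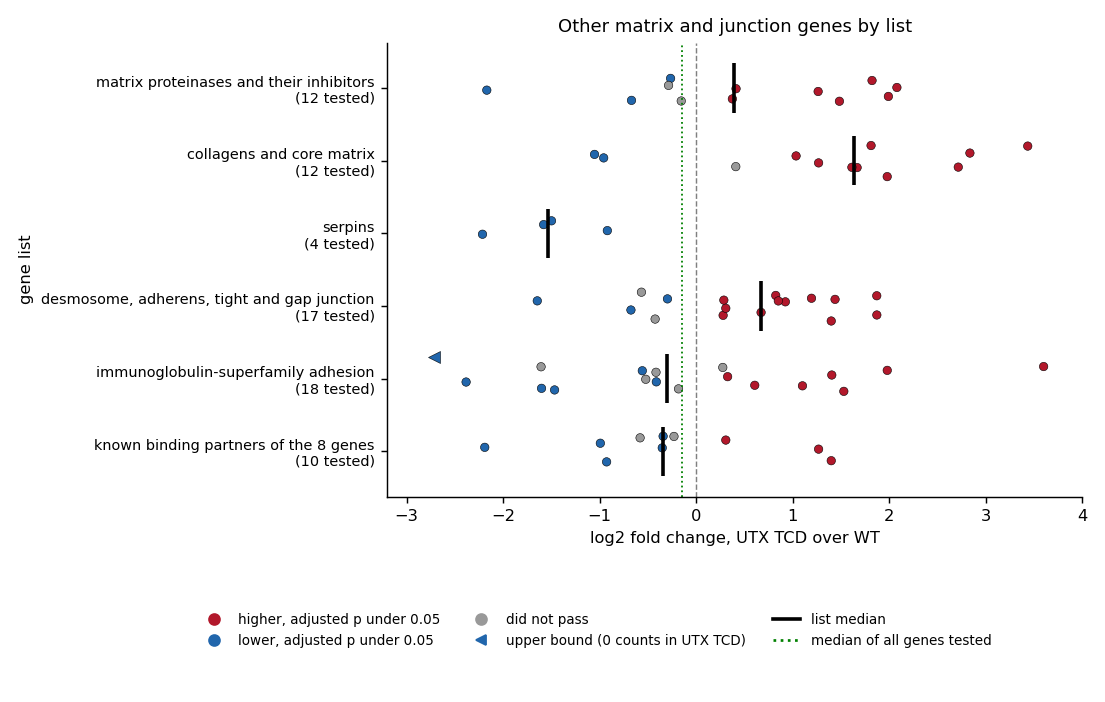
Log2 fold change, UTX TCD over WT, of each tested gene in the 6 lists, with red for higher, blue for lower and grey for genes that did not pass; black bars are list medians, the dotted line the median of all tested genes, and the triangle the bound for Siglecf. Collagens and core matrix have the highest median at 1.64 and the 4 serpins the lowest at -1.54.

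Several of the 8 genes are best known from endothelium, epithelium or stroma, so markers of other cell types were read beside them. None of 11 endothelial and none of 9 epithelial markers had a row in the table, so their levels were not analysed here. Of 10 stromal markers 1 had a row, Fap. It was lower, at 1.98 to 3.28 CPM in UTX TCD and 3.96 to 7.83 CPM in WT libraries (-1.31 ± 0.37, edgeR adjusted p = 0.019). Platelet, erythroid, macrophage, dendritic cell and neutrophil markers had no row. Among T cell markers 3 of 14 had a row, with summed levels of 3119 to 3377 CPM in UTX TCD and 2468 to 2672 CPM in WT libraries. Of these, Cd28 (0.83 ± 0.11) and Themis (0.69 ± 0.13) were higher at an edgeR adjusted p under 0.05, and Lck, at 1348 to 1416 CPM in UTX TCD and 1490 to 1535 CPM in WT libraries, did not pass (-0.13 ± 0.07). Cd8b1, 1 of 2 CD8 T cell markers, was higher, at 31.5 to 56.2 CPM in UTX TCD and 11.6 to 14.5 CPM in WT libraries (1.72 ± 0.24, edgeR adjusted p = 0.0023). Fcer2a, 1 of 10 B cell markers, was lower, at 7.29 to 16.1 CPM in UTX TCD and 20.8 to 21.5 CPM in WT libraries (-0.89 ± 0.29, edgeR adjusted p = 0.029). Eomes, 1 of 7 NK cell markers, was at 22.9 to 49.1 CPM in UTX TCD and 21.9 to 57.6 CPM in WT libraries and did not pass (0.13 ± 0.41). Ighm and Igkc, 2 of 5 plasma cell markers, summed to 480 to 774 CPM in UTX TCD and 446 to 548 CPM in WT libraries, mostly from Ighm, which did not pass (0.38 ± 0.17). Igkc was lower, at 7.82 to 15.2 CPM in UTX TCD and 14.5 to 22.9 CPM in WT libraries (-0.84 ± 0.30, edgeR adjusted p = 0.040). The part of other cells in the levels of the 8 genes was not tested.

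Of the 8 genes 5 overlap another annotated gene on the opposite strand, and none of these has a row in the table. An antisense gene, Gm10687, reaches the start of Mcam, and Gm48840 spans the gap between Mpzl2 and Mpzl3. Dsp overlaps Gm10129 and Col5a3 overlaps Gm26274. The sources used here do not say whether counting used strand, and without it reads of such pairs cannot be told apart.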

How the data were processed

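Deposited values were whole-number counts of reads per gene symbol, not normalized by the authors. HISAT2, HTSeq and FastQC, with build mm10, stand in the submitters' processing notes; the sources used here do not give versions, annotation or strand setting. Each of the 6 columns was tied to its sample by genotype and number in the title. The test was edgeR's quasi-likelihood test (version 4.0.16, R 4.3.3) on genotype alone, TMM scaling, a minimum count of 10 and minimum total count of 15 (44 genes left out), and Benjamini-Hochberg adjustment over 4118 genes at 0.05. The table appears to be selected on the genotype difference, inferred from the near absence of fold changes around 0, by a rule the sources used here do not give. If so, adjusted p-values are smaller than over all genes. CPM is relative to the listed genes and runs higher than in a full library. The standard error is the absolute log2 fold change over the square root of F. The script was tested on simulated counts with known changes. Few genes were changed there, as many up as down, whereas 68.1% of tested genes were called here. The scaling was thus not tested for such a table. The 8 genes and all lists were chosen with earlier results of these data known, and list genes with a row had passed any such selection, so list counts are not independent evidence. Positions and exon lengths are from GENCODE M21 (GRCm38), and log2 CPM used a prior count of 2. Named list genes are up to 4 called genes with the smallest p in each list, and like patterns were sought among genes with an average log2 CPM of at least 2, giving 2 per gene. One gene that the rule names is not reported here. Genes named outside this rule are marked as chosen after their values were seen. Alternatives were RLE, upper-quartile and gap-centred scaling, no filter, DESeq2 1.42.0, a replicate block, a count of all 21924 annotated protein-coding genes as tests, and each library left out.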

Additional observations from a re-analysis of the deposited data

How the results depend on the processing

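Recomputed under 12 other settings, the log2 fold changes of the 8 genes kept their direction in all 96 values. Each moved by less than 1 SD between replicates. This is no test of the 8 genes, because they were selected on these fold changes. Leaving out 1 of 3 libraries also moves a group mean by less than that SD almost by construction. Counts of called genes moved more. With adjustment over all annotated protein-coding genes, the table had 630 higher and 296 lower genes, and the matrix and junction lists 16 and 11, more tests being adjusted for. Lower genes of the table numbered 725 with upper-quartile scaling and 1832 with gap-centred scaling. By design, gap-centred scaling lowers the log2 fold changes of all genes by about 0.08. What else set these counts apart was not tested. With 1 library left out the table had 730 to 1824 higher and 351 to 1458 lower genes, and the lists 20 to 36 higher and 12 to 25 lower, with the lowest counts without WT replicate 2. Replicate numbers are shared by the genotypes, and same-numbered libraries correlated at 0.28, -0.28 and 0.18 in their deviations from the group means. With 3 libraries per group, whose deviations are tied to each other, these values cannot decide whether the numbers pair the mice. With the replicate block the table had 1607 higher and 1026 lower genes and the lists 34 and 24, and Mcam was at 1.04. Depth limits Col5a3, Mpzl2 and Serpinf1 in UTX TCD libraries, Dsp in UTX TCD replicate 2 and Mmp14 in WT libraries, which rest on 2 to 24 counts.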
